A study of Mus musculus with 23 samples.

Results

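Activating transcription factor 4 (Atf4) and 9 of its known target genes were described in mouse hippocampus, across a genotype label and chronic social defeat stress. The 10 genes were Atf4, Chac1, Ddit3, Trib3, Sesn2, Asns, Phgdh, Psat1, Shmt2 and Mthfd2, out of 39017 genes measured. They were chosen as Atf4 and targets known from the literature, and they were picked because several stood higher in libraries labelled Nrsn2 knockout (KO) than in wild type (WT). For that reason the KO-labelled against WT values of these 10 genes are given below as a description, without a test.

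ATF4 is the transcription factor at the end of the integrated stress response. Kinases that sense missing amino acids, unfolded protein in the endoplasmic reticulum (ER), haem shortage or viral RNA phosphorylate the initiation factor eIF2, which slows translation in general while translation of the Atf4 mRNA increases. ATF4 then binds C/EBP-ATF response elements (CARE), often with a C/EBP partner, and induces genes for amino acid synthesis, amino acid uptake, tRNA charging, mitochondrial folate metabolism and feedback on the response itself. In brain, eIF2 phosphorylation and ATF4 are known for their part in long-term memory. Control of ATF4 is largely translational, so the mRNA levels measured here do not give the amount of protein.

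Poly(A) RNA from hippocampi was sequenced as 75 bp single-end reads. The groups were KO-labelled mice after chronic social defeat stress (CSDS), WT mice after CSDS, KO-labelled controls and WT controls, with 5 libraries each. In CSDS a mouse spends 5 min in the cage of an unfamiliar aggressive CD-1 mouse on each of 10 days, with a new aggressor every day, and lives behind a perforated divider in between. The labels give no knockout allele, strain, sex or age for the mice, and do not say whether a library came from a single animal. The p-values below therefore reflect how much these libraries vary, which may be technical in part.

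Checks of the labels came first. Nrsn2 itself, the gene named in the genotype, was not lower in KO-labelled libraries, with 34.1 ± 2.34 RPKM in KO-labelled CSDS, 29.7 ± 2.55 in WT CSDS, 31.2 ± 1.93 in KO-labelled control and 29.1 ± 2.42 in WT control libraries (mean ± SD, n = 5 each). Gabra2, a gene whose level is known to differ between C57BL/6 substrains, was looked at after its values had been seen. It stood at 17.9 ± 0.547 RPKM in KO-labelled CSDS and 50.4 ± 2.82 in WT CSDS libraries, and at 23.2 ± 1.84 in KO-labelled controls and 49.0 ± 6.02 in WT controls. The KO label and a difference in genetic background cannot be told apart here. Library 10 of each control group had high Xist, at 48.2 RPKM in the KO-labelled and 56.5 in the WT library, with Ddx3y at 0.499 and 0.163 RPKM, a pattern seen in none of the CSDS libraries. Xist and Ddx3y are sex-linked, so by these genes sex was not balanced between control and CSDS groups. A further 3 libraries (KO-labelled 11, KO-labelled 10B and WT 9B) are controls by title and CSDS by treatment field. They stayed outside the group comparisons and are given singly. By root mean square difference of log2 values, WT 9B and WT control 9 were each other's nearest library (0.206). KO-labelled 11 and 10B were nearest to each other (0.204), and KO-labelled control 7 was nearest to 10B (0.253). Which label is right was not tested. Depth estimated from the values was 25.58 to 55.36 M reads, with a median of 44.43 M. Markers of hippocampal neurons were present in every group, and 0 of the 12 were at 0. Because the samples are bulk tissue, fewer cells of a type and less RNA per cell cannot be told apart.

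Promoters are shown for the members whose window holds the CARE core, since this is the element that ATF4 is known to bind. All 10 genes matched the RefSeq promoter table (build GRCm38.p6), which holds 250 bases before to 50 bases after each transcription start, in 11 windows. The core was searched as TGATGNAA on both strands, so that a match on the other strand reads TTNCATCA; a match was found in Chac1, Asns and Trib3, which is 3 of 10 genes, against 4.51% of the 27025 genes in the table. The exact form TGATGCAA was found in Chac1 alone among the members and in 1.03% of all genes. The Chac1 stretch runs up to the base before the deposited gene start, at chr2:119350992-119351228 on the plus strand, with the match 193 bases before the RefSeq start. The 30-base Asns site lies at chr6:7693214-7693243 on the minus strand, 23 bases before the RefSeq start and inside the gene as deposited. The 30-base Trib3 site lies at chr2:152344028-152344057 on the minus strand, 14 bases after the RefSeq start; the match lies outside the gene as deposited, and the last 5 bases of the site lie inside it. Capitals mark the match.
Chac1: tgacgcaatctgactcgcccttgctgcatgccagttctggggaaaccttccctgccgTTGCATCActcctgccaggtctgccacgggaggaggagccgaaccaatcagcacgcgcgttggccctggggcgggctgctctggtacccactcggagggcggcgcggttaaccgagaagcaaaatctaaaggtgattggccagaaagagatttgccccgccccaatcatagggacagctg
Asns: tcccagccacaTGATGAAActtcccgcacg
Trib3: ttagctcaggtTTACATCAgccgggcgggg
A match of these letters is not evidence of binding, and for the other 7 genes the window simply does not hold them. Among the pathway lists described below, a match stood in 8 of the 24 other ATF4 targets with a window (of 30 in the list), 1 of 17 regulators of the stress response (of 21), 0 of 16 serine and one-carbon genes (of 20) and 0 of 14 ER chaperone genes (of 17). A match stood in 5 of 8 tRNA synthetases with a window (of 13) and 2 of 10 amino acid transporters (of 14). In these 2 lists fewer than 80% of the genes had a window, so that their counts are void as a description of the list.

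Atf4 was the most abundant of the 10 genes in all 4 groups, and every KO-labelled library was above every WT library. Atf4 (ENSMUSG00000042406, chromosome 15, 80255184 to 80257541, mm10, plus strand) measured 53.4, 50.5, 49.3, 47.3 and 49.1 RPKM in KO-labelled CSDS libraries, against 39.7, 37.3, 39.5, 38.4 and 38.4 RPKM in WT CSDS libraries. In controls it measured 49.8, 50.8, 49.8, 51.0 and 57.7 RPKM with the KO label, against 43.1, 42.3, 40.7, 41.8 and 39.4 RPKM in WT. The groups did not overlap in either condition. The KO-labelled mean was 1.29 times the WT mean after CSDS and 1.25 times in controls, and the log2 fold changes on the log2(RPKM + 0.5) scale were 0.36 ± 0.03 and 0.32 ± 0.04 (SE, n = 5 per group). The highest of all Atf4 values, 57.7 RPKM, belonged to KO-labelled control 10, one of the libraries with high Xist.

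Among the genes of feedback and cell death, Chac1 showed the largest relative difference of the 9 members that passed the expression filter. Chac1 (ENSMUSG00000027313, chromosome 2, 119351229 to 119354381, plus strand), the cytosolic enzyme that degrades glutathione, had 2.94, 3.05, 3.05, 3.33 and 3.24 RPKM in KO-labelled CSDS libraries, against 2.06, 2.11, 2.04, 2.32 and 1.81 RPKM in WT CSDS libraries. In controls it had 3.14, 3.53, 2.92, 2.93 and 3.61 RPKM with the KO label, against 2.15, 2.00, 1.96, 1.92 and 2.11 RPKM in WT. Again no KO-labelled library overlapped a WT library. The ratio of means was 1.51 after CSDS and 1.59 in controls, with log2 fold changes of 0.50 ± 0.05 and 0.56 ± 0.06. Chac1 rested on an estimated 118 to 308 reads per library.

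Sesn2 (ENSMUSG00000028893, chromosome 4), a leucine sensor that restrains mTORC1, had 4.08, 4.11, 4.55, 4.11 and 4.25 RPKM in KO-labelled CSDS libraries, against 3.59, 3.51, 3.84, 3.78 and 3.72 RPKM in WT CSDS libraries, with no overlap. In controls the ranges overlapped, at 3.94 to 4.62 RPKM with the KO label and 3.84 to 4.43 RPKM in WT. The log2 fold changes were 0.17 ± 0.04 after CSDS and 0.07 ± 0.05 in controls.

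Ddit3 (ENSMUSG00000025408, chromosome 10), which encodes CHOP, the transcription factor of prolonged ER stress, was the member with a lower mean under the KO label in both conditions. Its means were 9.66 ± 0.476 RPKM in KO-labelled CSDS and 10.2 ± 0.439 in WT CSDS libraries, and 10.6 ± 0.568 in KO-labelled controls and 11.0 ± 0.488 in WT controls (SD, n = 5 each). The ranges overlapped in both conditions, and the log2 fold changes were -0.08 ± 0.04 and -0.04 ± 0.04. Exons of Ddit3 overlap exons of other annotated genes, among them 68 bases of Mars on the opposite strand, and the library kit does not mark strand, so reads there cannot be assigned with certainty.

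Trib3 (ENSMUSG00000032715, chromosome 2, 152337422 to 152344032, minus strand), a pseudokinase that feeds back on ATF4, was too low for the model across genes, which took genes with a mean of at least 0.5 RPKM. It had 0.197, 0.257, 0.292, 0.180 and 0.243 RPKM in KO-labelled CSDS libraries, against 0.137, 0.105, 0.134, 0.134 and 0.164 RPKM in WT CSDS libraries. In controls it had 0.149, 0.331, 0.352, 0.255 and 0.306 RPKM with the KO label, against 0.127, 0.192, 0.201, 0.247 and 0.262 RPKM in WT. The groups were apart after CSDS and overlapped in controls. These values stand on an estimated 10 to 34 reads per library, and the gene lies 24.7 kb from Nrsn2, so that the genotype label and local DNA around Nrsn2 cannot be told apart for this gene.

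Of the amino acid synthesis genes, Asns was higher in every KO-labelled library than in any WT library of the same condition. Asns (ENSMUSG00000029752, chromosome 6, 7675169 to 7693254, minus strand), asparagine synthetase, had 32.5, 29.6, 27.4, 30.4 and 30.5 RPKM in KO-labelled CSDS libraries, against 23.9, 24.4, 23.8, 25.5 and 24.1 RPKM in WT CSDS libraries. In controls it had 26.6, 27.7, 24.8, 26.2 and 28.0 RPKM with the KO label, against 23.4, 22.4, 21.5, 22.3 and 22.8 RPKM in WT. The log2 fold changes were 0.30 ± 0.04 after CSDS and 0.24 ± 0.04 in controls.

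The serine pathway enzymes differed less. Phgdh (ENSMUSG00000053398, chromosome 3), which starts serine synthesis from glycolysis, had 29.3, 27.7, 30.0, 26.8 and 30.3 RPKM in KO-labelled CSDS libraries, against 27.2, 27.4, 30.5, 29.8 and 26.8 RPKM in WT CSDS libraries. In controls it had 27.7, 26.2, 26.0, 27.2 and 30.3 RPKM with the KO label, against 25.3, 24.6, 25.1, 25.7 and 23.4 RPKM in WT. The labels overlapped after CSDS and did not overlap in controls, with log2 fold changes of 0.03 ± 0.05 and 0.14 ± 0.04. Psat1 (ENSMUSG00000024640, chromosome 19), the aminotransferase of the next step, ranged from 24.7 to 27.3 RPKM in KO-labelled CSDS, 23.4 to 25.1 in WT CSDS, 21.9 to 25.5 in KO-labelled control and 21.2 to 25.9 in WT control libraries. Its ranges overlapped in both conditions, with log2 fold changes of 0.08 ± 0.03 after CSDS and 0.01 ± 0.06 in controls.

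The mitochondrial folate enzymes both had higher means under the KO label. Mthfd2 (ENSMUSG00000005667, chromosome 6, 83305691 to 83325908, minus strand), a mitochondrial methylenetetrahydrofolate dehydrogenase that is low in most adult tissue, had 2.54, 2.59, 2.86, 2.48 and 2.21 RPKM in KO-labelled CSDS libraries, against 1.87, 1.83, 1.68, 1.92 and 1.73 RPKM in WT CSDS libraries. In controls it had 2.56, 2.42, 2.49, 2.57 and 3.00 RPKM with the KO label, against 1.83, 1.92, 1.73, 2.01 and 1.81 RPKM in WT. There was no overlap in either condition, and the ratio of means was 1.40 in both, with log2 fold changes of 0.39 ± 0.06 after CSDS and 0.40 ± 0.06 in controls. Shmt2 (ENSMUSG00000025403, chromosome 10), the mitochondrial serine hydroxymethyltransferase, averaged 6.65 ± 0.384 RPKM in KO-labelled CSDS and 5.86 ± 0.366 in WT CSDS libraries, and 6.44 ± 0.333 in KO-labelled controls and 5.56 ± 0.351 in WT controls. Its ranges overlapped in both conditions, with log2 fold changes of 0.17 ± 0.05 and 0.20 ± 0.05. Shmt2 shares 32 exon bases with Ndufa4l2 on the opposite strand, whose reads cannot be told apart there.

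**Figure D1:**
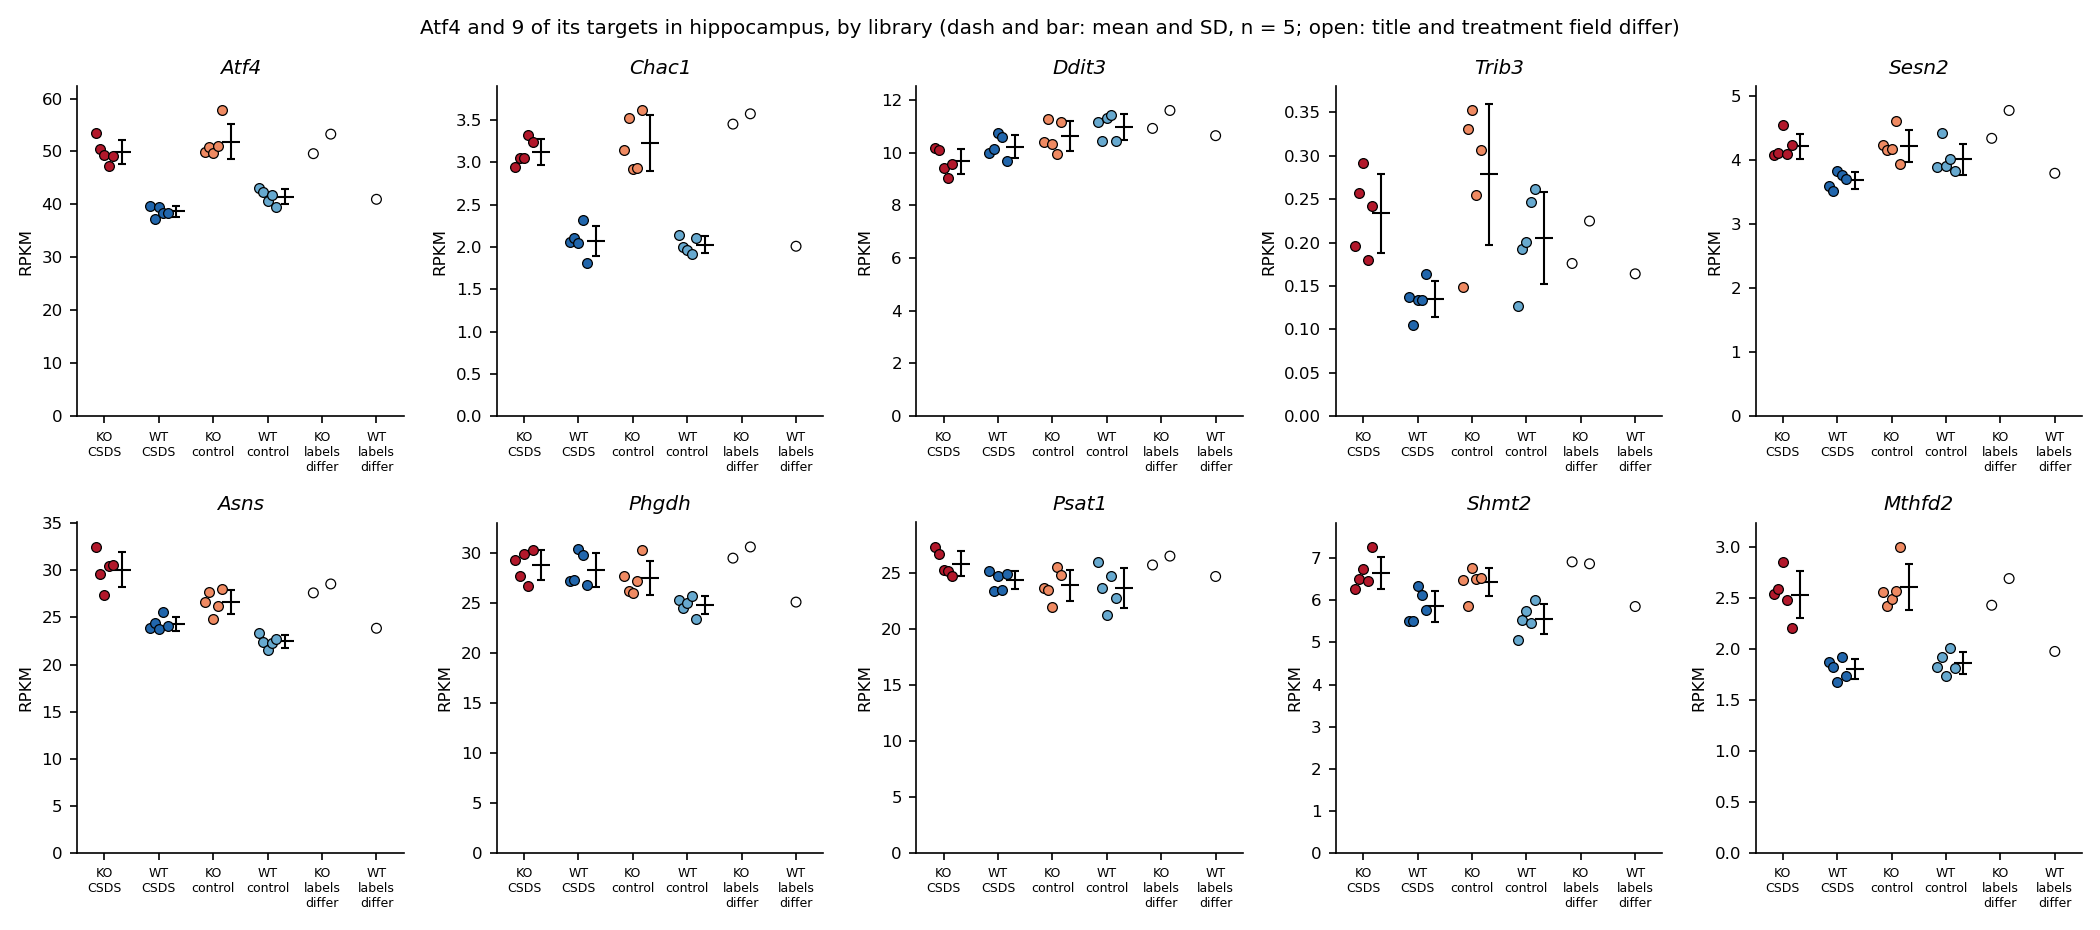
Expression of the 10 genes in RPKM (y axis from 0) in every library; filled points are the 5 libraries of a group, dashes and bars their mean and SD, and open points the 3 libraries whose title and treatment field differ. Atf4, Chac1, Asns and Mthfd2 show a gap between KO-labelled and WT points in both conditions, while Ddit3 and Psat1 overlap.

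The expression filter was passed by 9 of the 10 members. With the KO label against WT after CSDS, 5 of these 9 (Atf4, Chac1, Sesn2, Asns and Mthfd2) were past an adjusted p of 0.05 upwards and 0 downwards; of all 18225 genes tested, 1.1% were called higher and 0.818% lower. In controls, 4 of the 9 (Atf4, Chac1, Asns and Mthfd2) were past it upwards and 0 downwards; of 18297 genes tested, 0.809% were called higher and 0.333% lower. Every KO-labelled library stood above every WT library for 5 of the 9 after CSDS, where this held for 2.98% of genes, and for 5 of the 9 in controls, where it held for 3.19%. The median log2 fold change of the 9 was 0.17 after CSDS and 0.20 in controls, against 0.0037 and 0.0077 over all genes tested. Since the members were picked on this contrast, these counts describe them and carry no test. Sesn2 lost its call after CSDS whichever of the 10 libraries was left out, and Asns lost its call in controls without WT control 9.

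**Figure D2:**
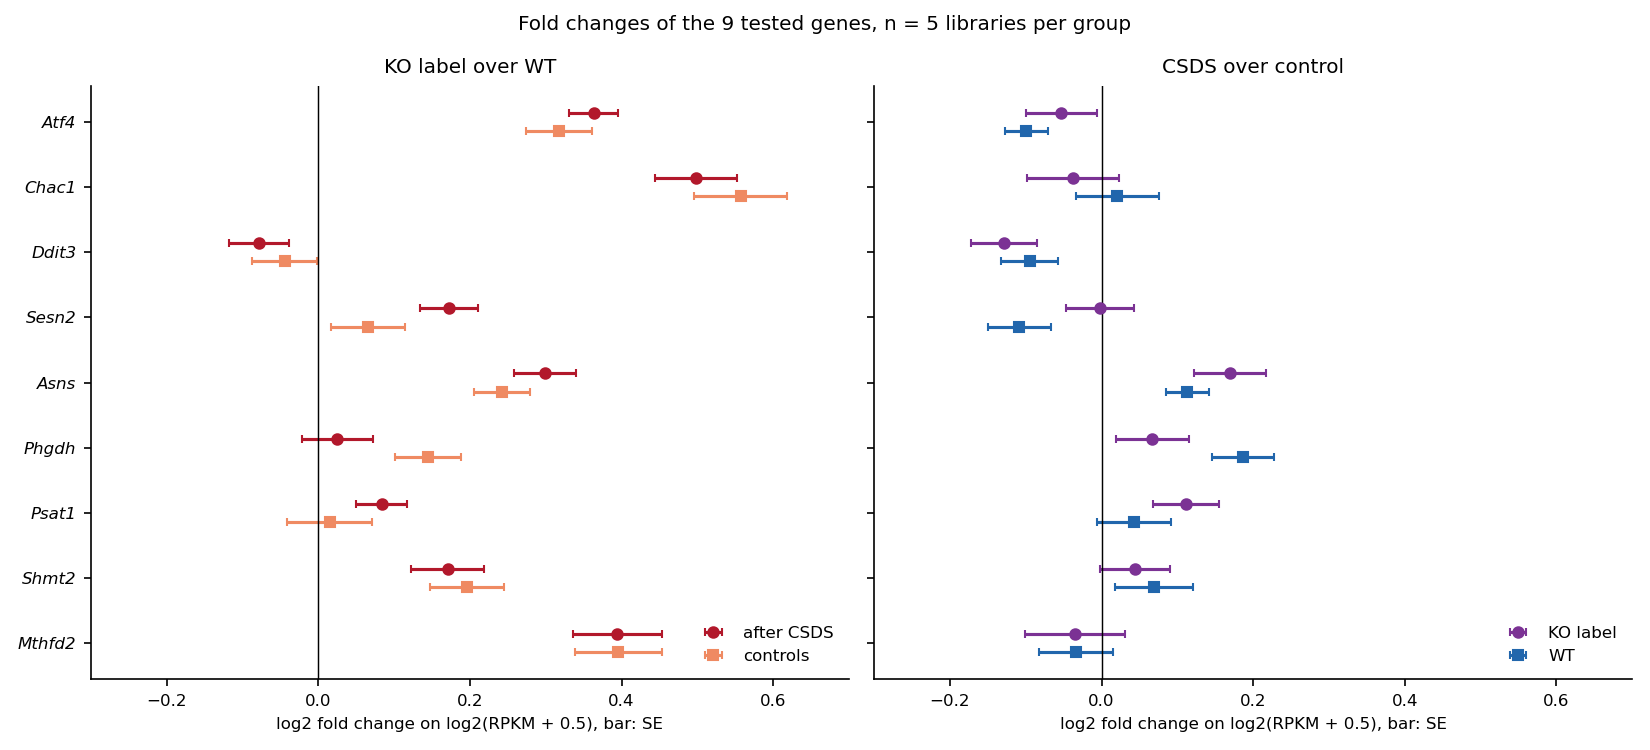
Log2 fold changes with their SE for the 9 genes that passed the expression filter, KO label over WT on the left and CSDS over control on the right. On the left the largest values belong to Chac1 (0.50 after CSDS and 0.56 in controls), followed by Mthfd2, Atf4 and Asns; on the right Phgdh in WT has the largest (0.19).

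The 3 libraries with differing labels had not entered the choice of the genes, and the genotype is the same in both of their label fields. Atf4 was at 49.6 and 53.3 RPKM in the KO-labelled libraries and 41.0 RPKM in WT 9B. Chac1 was at 3.45 and 3.57 RPKM in the KO-labelled libraries and 2.01 RPKM in WT 9B, and Mthfd2 was at 2.43 and 2.69 RPKM against 1.98 RPKM. All 10 members were higher in both KO-labelled libraries than in WT 9B, an order that 47.4% of 18263 genes shared.

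CSDS against control asked whether defeat moves these genes, and here the members were tested with limma, adjusted over all genes. These fits use the same libraries as the genotype values on which the members were picked. The members' p-values here are therefore not independent of that choice. In KO-labelled libraries 1 of 9 members rose and 0 fell, among 18259 genes of which 6.17% were called higher and 8.88% lower. In WT 2 of 9 rose and 1 fell, among 18274 genes of which 9.88% were called higher and 12.5% lower. The split of all called genes moved with scaling in KO-labelled libraries, with 1126 higher and 1621 lower as deposited, and 1361 higher and 1247 lower after scaling to a common median.

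Asns rose with CSDS under both labels, by 0.17 ± 0.05 on the log2 scale in KO-labelled libraries (adjusted p = 0.0358) and 0.11 ± 0.03 in WT (adjusted p = 0.0172). Its mean was 30.1 ± 1.85 RPKM in KO-labelled CSDS libraries against 26.7 ± 1.29 in KO-labelled controls, and 24.3 ± 0.713 RPKM in WT CSDS libraries against 22.5 ± 0.685 in WT controls. The groups overlapped for the KO label and did not overlap in WT. The call in KO-labelled libraries was lost in 7 of the 10 fits that left a library out (without control 6, 8 or 9 or CSDS 1, 2, 4 or 5). It was also lost with the treatment field as the label (0.14, adjusted p = 0.109) and without a filter on low values (adjusted p = 0.0555).

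Phgdh rose in WT, by 0.19 ± 0.04 (adjusted p = 0.0103), with every CSDS library above every control, at 28.3 ± 1.69 RPKM after CSDS and 24.8 ± 0.876 in controls. With the treatment field as the label the WT call was lost (0.16, adjusted p = 0.0622). In KO-labelled libraries its change of 0.07 ± 0.05 did not pass (adjusted p = 0.385), at 28.8 ± 1.52 RPKM after CSDS and 27.5 ± 1.72 in controls. The order of Phgdh levels was therefore KO-labelled CSDS, WT CSDS, KO-labelled control and WT control, and the upper 3 of these means lay within an SD of their neighbours.

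Atf4 fell in WT, by 0.10 on the log2 scale (log2 fold change -0.10 ± 0.03, adjusted p = 0.0301), to 38.7 ± 0.953 RPKM after CSDS against 41.5 ± 1.43 in controls. In KO-labelled libraries its log2 fold change was -0.05 ± 0.05 (adjusted p = 0.484), at 49.9 ± 2.29 RPKM after CSDS and 51.8 ± 3.35 in controls. The WT call was lost in 6 of 10 fits that left a library out (without control 6, 7 or 9 or CSDS 2, 4 or 5) and after scaling the libraries to a common median, in a single fit over all 4 groups, and with the treatment field as the label. In order of their means the groups were KO-labelled control, KO-labelled CSDS, WT control and WT CSDS; the KO-labelled groups overlapped each other, and so did the WT groups.

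The other members did not pass. Ddit3 had log2 fold changes of -0.13 ± 0.04 in KO-labelled libraries (adjusted p = 0.0731) and -0.09 ± 0.04 in WT (adjusted p = 0.098). In KO-labelled libraries Ddit3 was called lower in a single fit over all 4 groups (-0.13, adjusted p = 0.0356) and with the title as the label (-0.15, adjusted p = 0.0255). Psat1 had 0.11 ± 0.04 in KO-labelled libraries (adjusted p = 0.112) and 0.04 ± 0.05 in WT (adjusted p = 0.556). Sesn2 had -0.0017 ± 0.04 in KO-labelled libraries (adjusted p = 0.985) and -0.11 ± 0.04 in WT (adjusted p = 0.0886), and Shmt2 had 0.04 ± 0.05 (adjusted p = 0.57) and 0.07 ± 0.05 (adjusted p = 0.355). Chac1, at -0.04 ± 0.06 and 0.02 ± 0.05, and Mthfd2, at -0.04 ± 0.07 and -0.03 ± 0.05, had differences no larger than their SE; their 95% confidence intervals were -0.17 to 0.10 and -0.10 to 0.14 for Chac1, and -0.18 to 0.11 and -0.14 to 0.07 for Mthfd2. Trib3 was compared by a two-sided exact permutation test over 252 splits, whose smallest p is 0.00794. Its mean was 0.234 ± 0.0455 RPKM after CSDS against 0.279 ± 0.081 in controls with the KO label (exact p = 0.294), and 0.135 ± 0.0208 RPKM after CSDS against 0.206 ± 0.0531 in controls in WT (exact p = 0.0397, or 0.0794 adjusted over both comparisons).

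The difference between the CSDS effects (KO label minus WT) is built from both genotype contrasts on which the members were picked. For the members it is therefore a description without a test. As counts, 0 of 9 members were past the threshold, and 0 of 9 had an unadjusted p under 0.05. Over all 18263 genes limma called 27, which is 0.0602% higher and 0.0876% lower, and 2092 genes had an unadjusted p under 0.05. The widest differences were -0.12 ± 0.07 for Phgdh (95% confidence interval -0.26 to 0.02) and 0.11 ± 0.06 for Sesn2 (-0.02 to 0.23). A call in WT alone, as for Phgdh and Atf4, is no evidence of a difference between the labels.

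The other genes of the pathway were read from 6 lists with 115 genes, of which 107 were tested in each comparison, though not always the same 107. The lists were chosen with earlier results of these data known, so their calls and p-values are a description and no independent support. With the KO label, cytosolic tRNA synthetases, which load amino acids onto tRNA and include many known ATF4 targets, held most of the calls. After CSDS 6 of 13 were higher and 0 lower, and in controls 4 of 13 were higher and 0 lower, with a median log2 fold change of 0.11 in both. Of all genes tested, 1.1% were called higher after CSDS and 0.809% in controls. Nars, the asparaginyl-tRNA synthetase, averaged 66.6 ± 1.67 RPKM in KO-labelled CSDS and 56.3 ± 0.99 in WT CSDS libraries (log2 fold change 0.24 ± 0.02, adjusted p = 0.000231), and 66.1 ± 2.33 in KO-labelled controls and 58.9 ± 2.08 in WT controls (0.17 ± 0.03, adjusted p = 0.0467). Cars, for cysteine, averaged 8.04 ± 0.361 RPKM in KO-labelled CSDS and 6.44 ± 0.356 in WT CSDS libraries (0.30 ± 0.04, adjusted p = 0.00525), with 0.24 ± 0.04 in controls (adjusted p = 0.014). Gars and Yars, for glycine and tyrosine, were also called in both conditions, by 0.17 ± 0.02 and 0.16 ± 0.02 after CSDS and by 0.14 ± 0.02 and 0.18 ± 0.03 in controls. Scaling to a common median left 1 of the 13 called in controls and 6 after CSDS.

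Of all genes tested, 1.1% were called higher with the KO label after CSDS. Of 13 amino acid transporters tested, 2 were higher after CSDS with the KO label and none were lower, against none in controls, where 3 had an unadjusted p under 0.05. Those called were Slc7a1, the cationic amino acid carrier, by 0.19 ± 0.03 (adjusted p = 0.0118, against 0.14 ± 0.06 and adjusted p = 0.318 in controls), and Slc1a4, a carrier of alanine, serine and cysteine, by 0.16 ± 0.03 (adjusted p = 0.0252, against 0.13 ± 0.04 and adjusted p = 0.169 in controls). Limma called 0 of 25 other ATF4 targets, 0 of 21 regulators of the stress response and 0 of 18 serine and one-carbon genes in either condition. Of the other ATF4 targets, the 25 tested after CSDS included Pycr1 and not Angptl4, and those in controls Angptl4 and not Pycr1. At an unadjusted p under 0.05 there were 6, 4 and 1 after CSDS and 8, 3 and 3 in controls. ER chaperones and other targets of XBP1 and ATF6, the arm of the unfolded protein response that is read apart from ATF4, had 0 of 17 called in either condition, with 4 and 8 at an unadjusted p under 0.05 and medians of -0.06 after CSDS and -0.14 in controls.

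**Figure D3:**
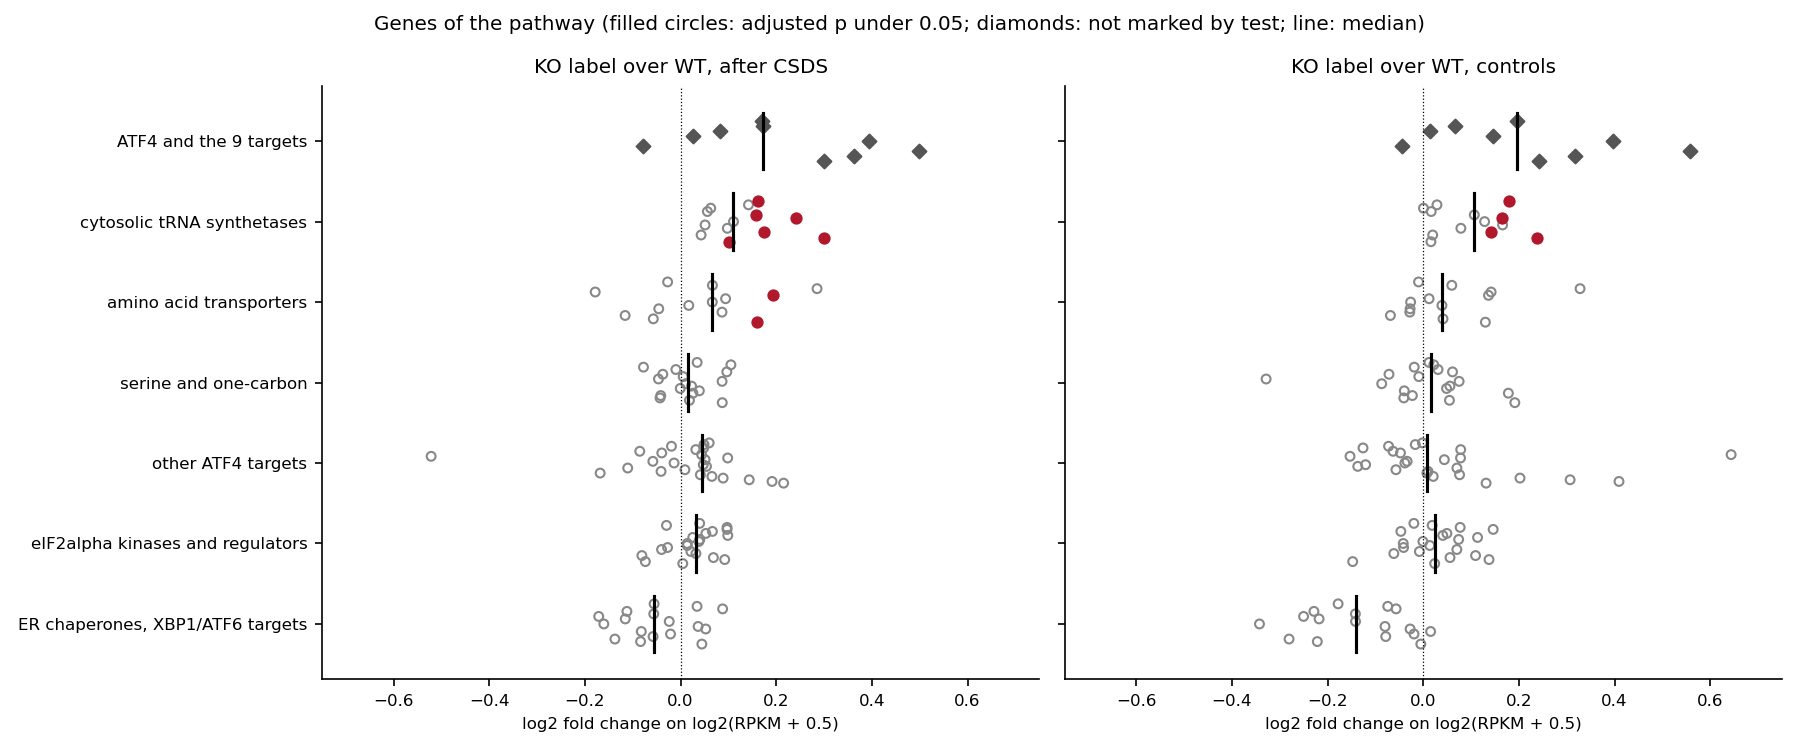
Log2 fold changes, KO label over WT, after CSDS (left) and in controls (right); each symbol is a gene, diamonds are the 9 members, filled circles list genes past adjusted p of 0.05, open circles the others, and vertical lines the medians. The tRNA synthetases lie to the right of 0 with a median of 0.11 in both panels, and the ER chaperones have medians of -0.06 and -0.14.

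With CSDS against control, calls went in both directions and differed in number between the lists. Of all genes tested, 6.17% were called higher and 8.88% lower in KO-labelled libraries, and 9.88% and 12.5% in WT. Other ATF4 targets had 1 of 25 higher and 10 lower in KO-labelled libraries, and 0 higher and 11 lower in WT, with median log2 fold changes of -0.12 and -0.11 against -0.0067 and -0.0017 over all genes tested. In KO-labelled libraries the smallest p values belonged to Cebpg, a C/EBP partner of ATF4, at -0.16 ± 0.03 (adjusted p = 0.00601), Angptl4, at -0.78 ± 0.14 (adjusted p = 0.00628), and Cth, cystathionine gamma-lyase, at -0.33 ± 0.06 (adjusted p = 0.00883). Angptl4 averaged 0.412 RPKM in KO-labelled CSDS libraries, under the 0.5 of the filter, and 1.09 in KO-labelled controls. It passed the filter only through the controls, so its p is not a fair test. In WT Cebpg was called too, at -0.15 ± 0.04 (adjusted p = 0.029), while Angptl4, at -0.12 ± 0.16 (adjusted p = 0.616), and Cth, at -0.15 ± 0.07 (adjusted p = 0.123), did not pass. The smallest p values in WT belonged to Ddit4, an inhibitor of mTORC1, at -0.42 ± 0.05 (adjusted p = 0.000567), Ndrg1, at -0.48 ± 0.06 (adjusted p = 0.000573), and Gpt2, a mitochondrial alanine aminotransferase, at -0.22 ± 0.03 (adjusted p = 0.0012). These 3 were called lower in KO-labelled libraries as well, at -0.41 ± 0.11, -0.23 ± 0.05 and -0.19 ± 0.05 in the same order. Ddit4, Ndrg1 and Angptl4 are also known, as background, as genes induced by glucocorticoids or low oxygen.

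The regulators of the stress response had 2 of 21 higher and 2 lower in KO-labelled libraries, and 2 higher and 3 lower in WT. Over all genes the shares were 6.17% higher and 8.88% lower in KO-labelled libraries, and 9.88% and 12.5% in WT. The list counts were not tested against these shares, and the genes named below are single examples. Eif2d, a factor of non-canonical initiation, rose by 0.14 ± 0.03 in KO-labelled libraries (adjusted p = 0.0145) and by 0.17 ± 0.03 in WT (adjusted p = 0.00296). Eif2s2, the beta subunit of eIF2, was at -0.14 ± 0.03 (adjusted p = 0.0166) and -0.19 ± 0.04 (adjusted p = 0.00541), and Dnajc3, an ER co-chaperone that inhibits eIF2 kinases, at -0.26 ± 0.06 (adjusted p = 0.0157) and -0.33 ± 0.07 (adjusted p = 0.00798). Ppp1r15b, which helps to remove the phosphate from eIF2, was called lower in WT, at -0.14 ± 0.03 (adjusted p = 0.00665), and was at -0.08 ± 0.04 in KO-labelled libraries (adjusted p = 0.152). Serine and one-carbon genes had 1 of 18 higher and 0 lower in KO-labelled libraries, and 2 higher and 3 lower in WT. Mthfd1l, the mitochondrial enzyme downstream of Mthfd2, rose by 0.59 ± 0.06 in KO-labelled libraries (adjusted p = 0.000394) and by 0.49 ± 0.05 in WT (adjusted p = 0.000418), while Mthfd2 did not pass. Mat2a, which makes S-adenosylmethionine, and Mtrr, which keeps methionine synthase active, were called lower in WT, at -0.20 ± 0.03 (adjusted p = 0.00245) and -0.17 ± 0.04 (adjusted p = 0.0155). In KO-labelled libraries they were at -0.12 ± 0.06 (adjusted p = 0.179) and -0.13 ± 0.07 (adjusted p = 0.215). Across all 6 lists, limma called the difference of CSDS effects for 0 of 107 genes. A list gene called under 1 label alone is therefore not shown to differ between the labels. Without both control 10 libraries, 1 of 25 other ATF4 targets and 1 of 13 transporters were called lower in that difference.

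Against shares over all genes of 6.17% higher and 8.88% lower in KO-labelled libraries, and 9.88% and 12.5% in WT, the list counts were not tested. Amino acid transporters had 1 of 13 higher and 1 lower under each label. In KO-labelled libraries they were Slc6a9, a glycine transporter, at 0.16 ± 0.03 (adjusted p = 0.0139), and Slc36a1, a proton-coupled carrier, at -0.15 ± 0.03 (adjusted p = 0.0162), which were at 0.08 ± 0.04 and -0.11 ± 0.04 in WT. In WT they were Slc7a8, a carrier of neutral amino acids, at 0.11 ± 0.03 (adjusted p = 0.0464), and Slc38a1, a glutamine carrier, at -0.11 ± 0.03 (adjusted p = 0.0269), which were at 0.09 ± 0.05 and 0.0040 ± 0.04 in KO-labelled libraries. After scaling to a common median, WT had 2 transporters called higher and 0 lower. The tRNA synthetases had 5 of 13 higher in KO-labelled libraries and 3 of 13 in WT, with none lower. Yars rose by 0.13 ± 0.02 in KO-labelled libraries and 0.14 ± 0.03 in WT, Gars by 0.11 ± 0.03 and 0.08 ± 0.02, and Lars, for leucine, by 0.16 ± 0.04 and 0.27 ± 0.03. Aars, for alanine, rose in KO-labelled libraries by 0.13 ± 0.02 (adjusted p = 0.00602) and was at 0.05 ± 0.03 in WT (adjusted p = 0.325).

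ER chaperone genes fell most often, 11 of 17 in KO-labelled libraries and 14 of 17 in WT, with none higher. Of all genes tested, 8.88% and 12.5% were called lower. Hspa5, which encodes BiP, averaged 54.8 ± 3.80 RPKM in KO-labelled CSDS libraries against 83.9 ± 7.86 in KO-labelled controls, and 61.3 ± 5.30 in WT CSDS libraries against 107 ± 12.5 in WT controls. Xbp1 and Pdia6 fell as well, by 0.41 and 0.45 on the log2 scale with the KO label and by 0.53 and 0.54 in WT. Where the 3 libraries of differing label were counted as CSDS, the counts of lower calls in KO-labelled libraries were 0 of 17 ER chaperone genes and 2 of 25 other ATF4 targets, and 10 and 5 in WT; the tRNA synthetases then had 0 of 13 higher in KO-labelled libraries and 1 in WT, and the transporters had 0 of 13 called under either label.

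Other tissue moved with some of these contrasts, and its part in the results was not tested. After CSDS, meningeal fibroblast markers (3 of 6 called lower with the KO label) summed to 24.1 to 32.5 RPKM in KO-labelled and 34.2 to 48.8 RPKM in WT libraries, and red blood cell markers (2 of 5 called lower) to 178 to 356 and 559 to 2807 RPKM. In controls none of these 11 markers was called. At an unadjusted p under 0.05 in controls there were 5 of 5 red blood cell markers and 1 of 6 meningeal markers. All 5 red blood cell markers were higher with the KO label in controls, with a median log2 fold change of 0.28. Astrocyte markers, the cell type with most serine synthesis in brain, had 0 of 10 called after CSDS and 2 of 10 called higher in controls, with sums of 974 to 1084 RPKM in KO-labelled CSDS, 987 to 1139 in WT CSDS, 997 to 1051 in KO-labelled control and 940 to 1067 in WT control libraries. With CSDS against control, 2 of 10 astrocyte markers were higher and 2 lower in KO-labelled libraries, and 2 higher and 1 lower in WT. Oligodendrocyte markers had 1 of 8 lower with the KO label after CSDS and 0 called in controls. With CSDS they had 1 of 8 higher and 0 lower in KO-labelled libraries, and 2 higher and 1 lower in WT. Of all genes, 6.17% were called higher with CSDS and 8.88% lower in KO-labelled libraries, and 9.88% and 12.5% in WT. With CSDS against control, structural RNAs such as Rn7sk had 4 of 7 lower in KO-labelled libraries and 7 of 7 lower in WT, with sums of 55.1 to 84.8 RPKM after CSDS against 88.0 to 563 in controls for the KO label, and 52.9 to 85.8 RPKM against 94.4 to 301 in WT. The lowest of these RNAs averaged 0.307 RPKM in KO-labelled CSDS and 0.313 in WT CSDS libraries, under the filter, and passed it only through the controls. Over both CSDS groups together, 2 of the 7 averaged under the filter. Any call of these 2 leans on the controls and is not a fair test. Endothelial markers had 4 of 6 lower and 1 higher in KO-labelled libraries, with sums of 37.2 to 43.0 RPKM after CSDS against 46.1 to 57.2 in controls, and 2 lower and 1 higher in WT, with sums of 39.7 to 45.3 RPKM after CSDS against 39.4 to 51.9 in controls. Meningeal markers were lower for 5 of 6 in KO-labelled and 0 of 6 in WT libraries, and red blood cell markers were higher for 0 of 5 in KO-labelled and 5 of 5 in WT libraries. Choroid plexus markers had 0 of 7 called in every comparison, but their sums varied widely between libraries. They were 500 to 3748 RPKM in KO-labelled CSDS, 2872 to 3703 in WT CSDS, 572 to 4484 in KO-labelled control and 22.3 to 4864 in WT control libraries. With the KO label, microglia markers had 0 of 8 called, and 5 had an unadjusted p under 0.05 after CSDS and 1 in controls. With CSDS, 1 of 8 was lower in KO-labelled libraries and 2 were higher in WT. No marker was at 0 in all libraries of a group.

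Among themselves the 9 tested members did not share a single profile. Each gene was standardised over the 20 libraries of the 4 groups, and profiles were set side by side by the root mean square (RMS) difference, in SD units, as a description. Atf4 and Mthfd2 were nearest, at 0.371, followed by Chac1 with Mthfd2, at 0.429, and Asns with Chac1, at 0.561. Ddit3 was the farthest gene from all 8 others, from 1.44 for Atf4 to 1.68 for Asns. All 18263 genes were ranked by nearness to the mean profile of the members, and members and gene models without a name were skipped. The 5 nearest named genes were Nudt3 at 0.298, Bex1 at 0.361, Bex2 at 0.393, Cort at 0.422 and Snrpc at 0.432. Nudt3, for example, averaged 66.0 ± 0.775 RPKM in KO-labelled CSDS and 53.2 ± 1.59 in WT CSDS libraries, and 65.6 ± 2.38 in KO-labelled controls and 53.9 ± 1.87 in WT controls. The profiles share their libraries and scaling, and the members were picked on the genotype contrast, so no p is given.

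**Figure D4:**
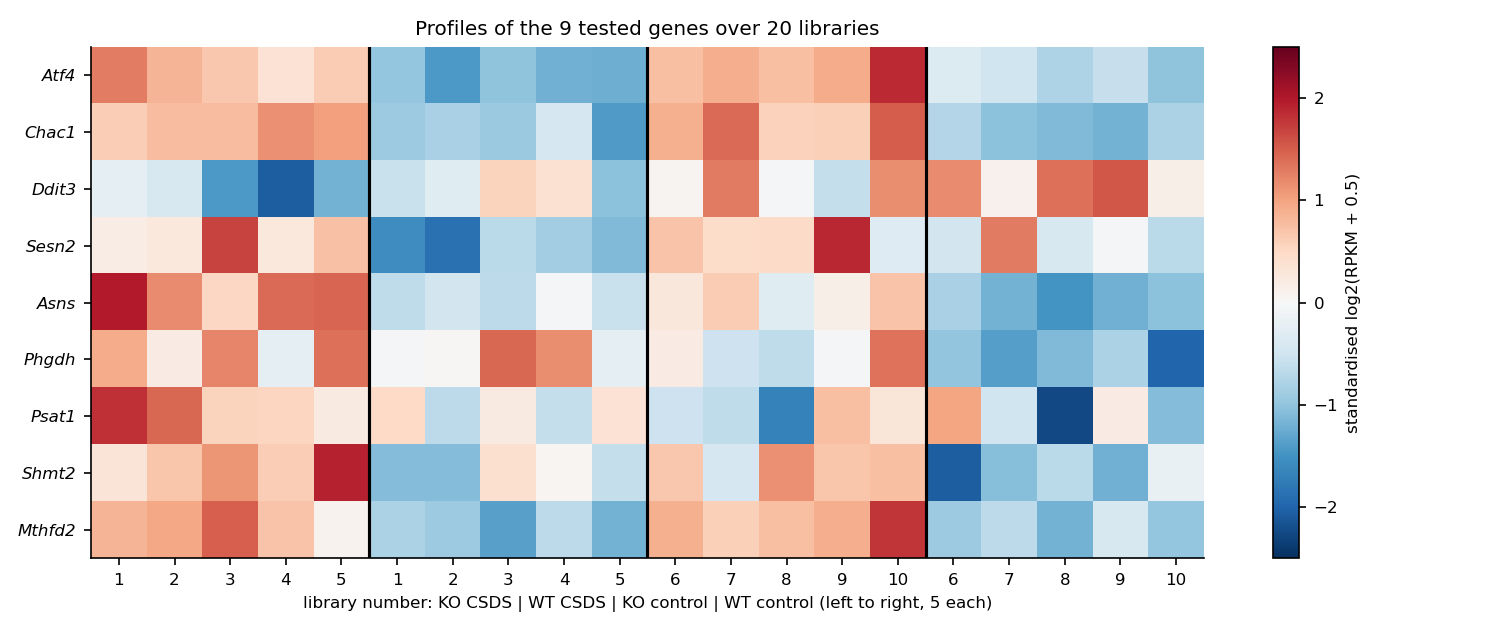
Standardised log2(RPKM + 0.5) of the 9 genes (rows) in the 20 libraries (columns), in the order KO-labelled CSDS, WT CSDS, KO-labelled control and WT control; red is above and blue below a gene's mean. Atf4, Chac1 and Mthfd2 change colour with the genotype label, and so does Asns except in KO-labelled control 8, which is blue. Ddit3 is mostly red in controls and blue in KO-labelled CSDS libraries.

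The genes are spread over the genome. Chac1 and Trib3 lie on chromosome 2 with Nrsn2, 33014 kb and 24.7 kb from it. Within 5 Mb of Trib3, 3.87% of 155 genes were called with the KO label in controls and 0.654% of 153 after CSDS, where 1.14% and 1.91% of all genes were. Shares below those over all genes in both conditions were found around Atf4 (0% of 217 in controls and 0.465% of 215 after CSDS), Chac1 (0.847% and 1.69% of 118), and Ddit3 and Shmt2, which share their neighbourhood (0% of 101 and 1.01% of 99). Around Asns both shares were above them, at 5.56% and 2.78% of 36 genes, which is 2 genes and 1 gene. Sesn2 (2.84% and 1.70% of 176) and Mthfd2 (1.94% and 0.971% of 103) had the higher share in controls, and Phgdh (0% of 150 and 2.70% of 148) and Psat1 (0% of 39 and 5.71% of 35) had it after CSDS. Members are not counted among these neighbours.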

How the data were processed

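Hippocampal RNA was measured in 23 mouse libraries, 12 KO-labelled and 11 WT. Per the labels' protocols, poly(A) libraries were made with a TruSeq V2 kit, which does not mark strand. STAR and the mm10 build are named in the submitters' processing notes; which STAR version, annotation and counter were used is not given in the sources used here. Both tables hold 39017 genes, with RPKM (read number scaled to gene length and library size) as deposited by the authors for every library and as a group mean. Further columns, per the file headers, come from edgeR and give log2 fold changes, mean log2 abundance, a likelihood ratio score, and p-values with their adjusted form; none is used as a result. The mean log2 abundance was identical in both tables for all 17840 genes that have it, and RPKM was compared across tables on that ground.

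The title and treatment field give the same condition for 20 libraries, and these formed the 4 groups. Genes averaging at least 0.5 RPKM over the fitted libraries were tested on the log2(RPKM + 0.5) scale with limma 3.58.1 in R 4.3.3 (lmFit and eBayes with trend), two-sided, with Benjamini-Hochberg adjustment over all genes at 0.05. Each comparison was fitted on its own groups, and the difference of CSDS effects on all 20 libraries. The added 0.5 makes fold changes of low genes too small. The script was tested on simulated data. Depth was estimated from the step between low RPKM values of 11945 single-exon genes, since a step is 1 read; 93.5 to 95.1% of these low values then came out whole, to within 0.05 reads. Read numbers per gene are approximate, since the authors' gene lengths are not given. Gene coordinates were the same in GENCODE vM21 for 96.3% of genes, including all 10 members.

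The members, the 6 pathway lists and the marker lists were chosen with earlier results of these data known. From each pathway list the text names up to 3 genes of smallest p per comparison among those past the threshold; Gabra2 and the sex-linked genes were added after their values had been seen. Alternatives covered the pseudocount, the filter, scaling, the 3 libraries of differing label, the fit over all groups, the replicate block, and leaving out each library.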

Additional observations from a re-analysis of the deposited data

Results flagged for a closer look

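Among 40 sets of 5 libraries (10 members in 4 groups), 2 held a library that stood apart from the other 4 by Dixon's criterion (critical value 0.71), where chance gives about 1 in 20. Both were KO-labelled control 10, the library with high Xist. Atf4 was at 57.7 RPKM there, with the next library at 51.0. Mthfd2 was at 3.00 RPKM there, with the next library at 2.57. Without both control 10 libraries, the log2 fold changes with the KO label in controls were 0.26 ± 0.02 for Atf4 and 0.34 ± 0.05 for Mthfd2 (SE), against 0.32 ± 0.04 and 0.40 ± 0.06 with them.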

How the results depend on the processing

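For the KO label against WT in controls, the number of genes called, 209, became 116 with median scaling, 722 with a single fit over all groups and 978 with the labels taken by title; leaving out 1 library gave 68 to 218. After CSDS, 349 became 205 to 478 when 1 library was left out. For CSDS against control, taking the treatment field as the label turned 4093 into 1240 in WT and 2747 into 143 with the KO label, and leaving out 1 library gave 3077 to 4016 and 1658 to 3668. The 3668 belonged to the fit without KO-labelled control 10. The 27 genes of the difference of effects became 1 by treatment field, 98 by title and 181 without both control 10 libraries, and 16 to 244 with 1 library left out. The causes were not tested. Taking labels by treatment field leaves the fit of controls as it is, and taking them by title, or leaving out both control 10 libraries, leaves the fit after CSDS as it is.

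Replicate numbers are shared between the genotypes. The correlation of deviations was over 0.1 in 3 of 5 control pairs (range -0.107 to 0.371) and in 0 of 5 CSDS pairs (-0.0054 to 0.0972), and 3 of all 10 pairs correlated best with their own number, so equal numbers were not taken as pairs. The control 10 libraries, both with high Xist, had the highest correlation and were each other's nearest library. With the replicate block, 45 genes were called in controls (Chac1 and Asns among the members), 162 after CSDS (Atf4, Chac1, Asns and Mthfd2) and 23 for the difference of effects. Of 13 tRNA synthetases, 0 were called in controls and 4 after CSDS with the block, against 4 and 6 without it, and of 13 transporters 0 were called after CSDS, against 2.

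With the KO label, the contrast on which the members were chosen, calls are a description only: Asns lost its call in controls with median scaling and Sesn2 after CSDS without a filter, while Shmt2 gained one in controls in a single fit over all groups and by title and after CSDS by treatment field, and Phgdh gained one in controls by title. Signs that turned belonged to values near 0 that passed no threshold. Psat1 in controls became -0.012 without both control 10 libraries, and -0.023 to 0.048 with 1 library left out. With CSDS in KO-labelled libraries, Sesn2 became 0.016 with median scaling, 0.016 with quantile normalization and 0.027 by treatment field (-0.027 to 0.027 with 1 left out), Chac1 0.0047 by treatment field, and Mthfd2 0.0084 without both control 10 libraries (-0.073 to 0.0084). Chac1 in WT ran from -0.013 to 0.058 with 1 library left out. In the difference of effects, Mthfd2 became 0.000383 with pseudocount 0.1, 0.0064 with median scaling, 0.037 with quantile normalization, 0.016 by title and 0.050 without both control 10 libraries (-0.038 to 0.042 with 1 left out), Ddit3 0.017 by treatment field and 0.00022 without both control 10 libraries, and Shmt2 ran from -0.056 to 0.0058. Depth limits Trib3 most, at an estimated 10 to 34 reads per library.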
